A study of Homo sapiens with 36 samples.

Results

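MEC1 is an established B-cell line derived from chronic lymphocytic leukaemia (CLL) that carries mutated p53. The comparison described here is between 3 RNA-sequencing libraries of MEC1 cells given 10 µM idelalisib, an inhibitor of the kinase PI3Kδ, and 3 libraries of MEC1 cells given 5 µM ibrutinib, an inhibitor of the kinase BTK, each for 48 h. These 6 libraries were chosen by the drug, dose and time in their titles, out of 36 in the series, and the choice used no measured value. The series holds the lines MEC1, JVM2 and EHEB, each given the vehicle DMSO, fludarabine, ibrutinib or idelalisib, with 3 libraries a group, in a study of how CLL cells respond to drugs. The comparison asks which genes and functions separate PI3K from BTK inhibition in one line. The ibrutinib and idelalisib libraries carry neighbouring library numbers in their titles and are called 1 to 3 here in the order of those numbers. The MEC1 DMSO libraries carry numbers far from these (37 to 39), so DMSO values are given only as a level to set beside the others. The doses differ, so drug and dose cannot be told apart. JVM2 and EHEB received the same doses for 72 h and 96 h, so line and time cannot be told apart. The study's methods speak of independent experiments in general but do not say that each library came from a separate culture. The p values within MEC1 measure only the spread between libraries of a group, estimated over all 12 MEC1 libraries, DMSO and fludarabine included.

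The B-cell receptor (BCR) signals through the kinases LYN, SYK and BTK. BTK activates PLCG2, which leads to calcium release, protein kinase C and NF-kB. In parallel, PI3Kδ (catalytic subunit PIK3CD) makes the lipid PIP3, which recruits both BTK and AKT to the membrane. AKT keeps the FOXO transcription factors out of the nucleus and feeds mTORC1, which drives ribosome production, translation and anabolic metabolism. Both drugs are used against CLL and move leukaemic cells out of lymph nodes, where the receptor CXCR4, among others, holds them.

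The 6 libraries held 37846913 to 49169738 counts assigned to named genes. Values are given as CPM, a gene's count scaled to the size of its library with edgeR's TMM factor, for libraries 1, 2 and 3 of each drug in that order. The fold change is the log2 ratio of idelalisib over ibrutinib with its standard error (SE), and p values come from the quasi-likelihood test of edgeR, adjusted over all genes by the Benjamini-Hochberg method. Other tools, scalings, filters, sets of libraries and an offset for transcript length were also tried, and are named where they end a call or turn a count. The defining B-cell markers matched the label: MS4A1, CD79A, CD79B, PAX5, CD22, EBF1 and CD74 were present in all 6 libraries, the lowest at a mean of 149 CPM. Of 24 markers of T, NK, myeloid, erythroid and platelet cells, 16 stayed under 1 CPM in all 6 libraries, and CD3D, CD3E, CD14, MPO, S100A8, HBB and PPBP were at 0. The summed level of the 24 was 109.4 to 117.8 CPM with ibrutinib, 140.7 to 149.1 CPM with idelalisib and 113.3 to 121.4 CPM with DMSO. Of the 12 tested, 3 were higher with idelalisib, namely ITGAM (0.50), KLRD1 (0.55) and NKG7 (1.299, a gene outside the naming rule); the call of KLRD1 was lost without ibrutinib library 1 or idelalisib library 1 (adjusted p = 0.0556 to 0.0593) or with library size scaling, the 6 libraries alone or the joint fit of 36 libraries (adjusted p = 0.0513 to 0.176). The share of counts in small and other structural RNA genes also differed, from 12.67%, 15.6% and 13.02% with ibrutinib to 21.51%, 19.9% and 22.69% with idelalisib, and the protein-coding share went from a mean of 82.91% to one of 75.07%. On the second principal component of the 6 libraries (21.7% of the variance) ibrutinib library 2 stood apart at 48.2, the others lying between −37.8 and 20. The part of these differences in the results below was not tested.

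Idelalisib and ibrutinib left MEC1 cells with different transcript levels at 2694 of 17516 genes tested, a background of 15.4%. With idelalisib 1053 genes were higher (6.01%) and 1641 lower (9.37%). The differences were mostly small, with a median absolute log2 fold change of 0.399 among the called genes, and 95 genes (0.542%) differed at least 2-fold, 64 of them higher and 31 lower. The genes higher with idelalisib included 61 of 76 cytosolic ribosomal protein genes, 5 of 20 MHC class II genes and 6 of 26 genes of homing and retention, among them CXCR4 and CD69. The genes lower with idelalisib included 15 of 21 heat shock genes, 19 of 38 ribosome biogenesis genes, 14 of 34 genes of glycolysis and hypoxia, 6 of 24 cholesterol and 5 of 16 fatty acid synthesis genes, 16 of 46 DNA replication genes and 7 of 27 NF-kB genes. In 2664 of the called genes the 3 values of one drug all lay outside those of the other, as they did in 32.8% of all genes tested. The split between higher and lower depended on the scaling: library size scaling gave 493 higher and 3852 lower, with the median of all genes at −0.172, upper quartile scaling gave 1319 and 1260, and the 6 libraries alone 792 and 712. The 2-fold genes numbered 58 without ibrutinib library 1 and 164 without ibrutinib library 2, and library size scaling gave 47 higher and 83 lower. The number of calls was 1376 without ibrutinib library 1, 1654 without ibrutinib library 3, 1483 without idelalisib library 1 and 1663 without idelalisib library 3, against 2885 without ibrutinib library 2 and 2520 without idelalisib library 2.

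**Figure D1:**
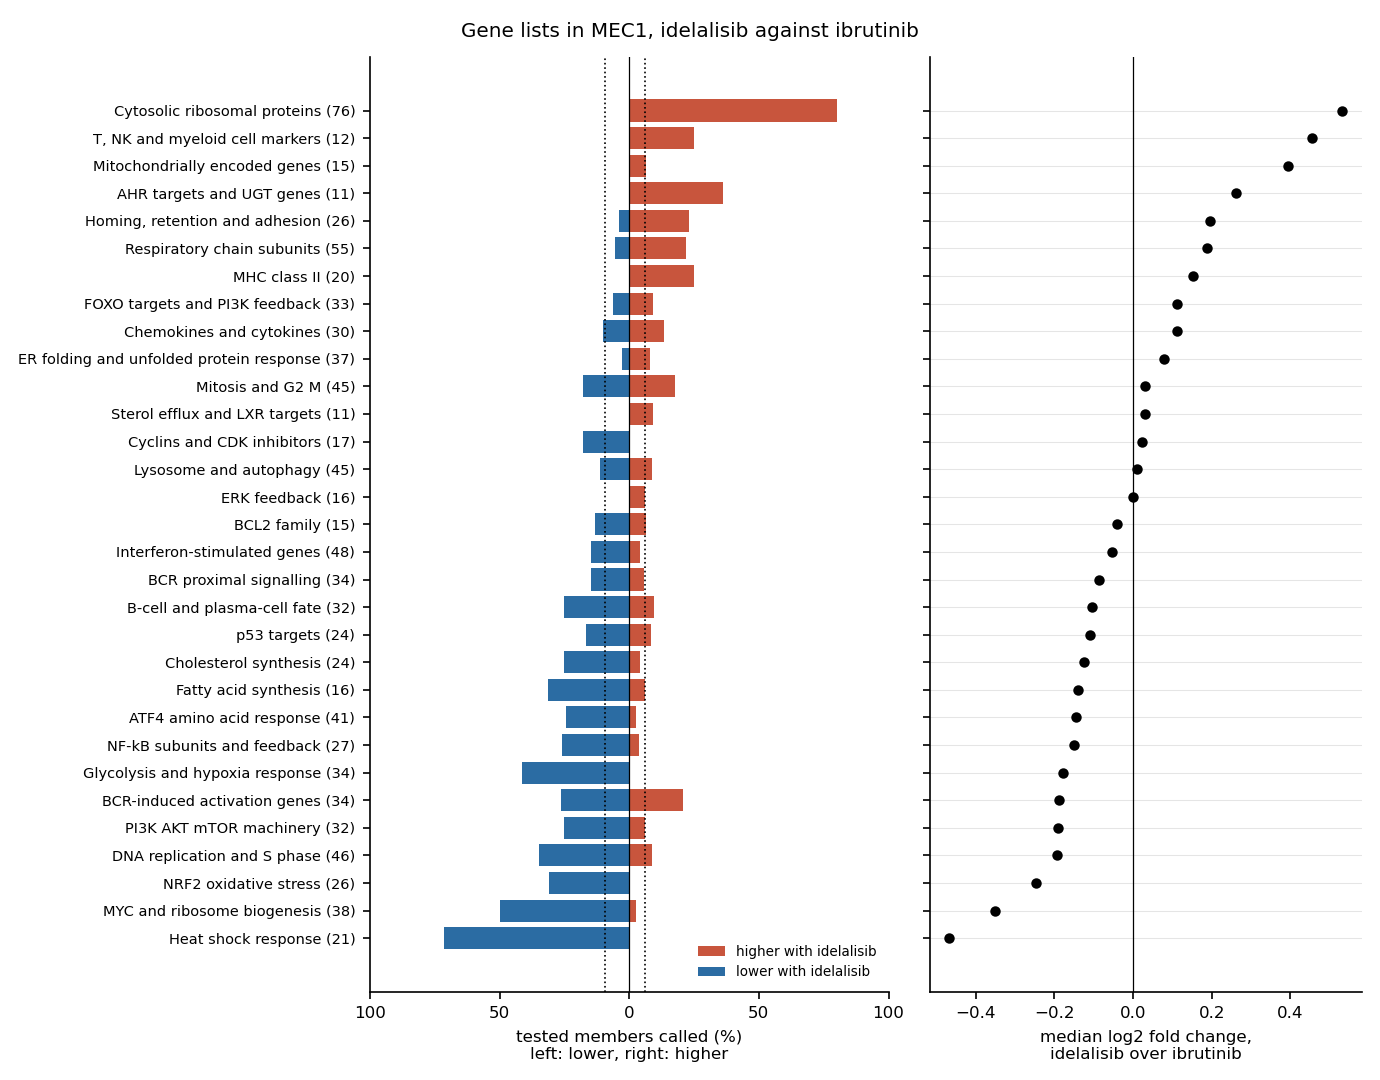
Left panel, the percentage of tested members of each gene list called higher (to the right) or lower (to the left) in MEC1 with idelalisib than with ibrutinib; right panel, the list's median log2 fold change. Cytosolic ribosomal protein genes (61 of 76 higher) and the heat shock list (15 of 21 lower) stand at the ends.

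The drug targets themselves were present and were not called different between the groups. BTK stood at 93.99, 100.2 and 83.9 CPM with ibrutinib and 101, 81.8 and 87.1 CPM with idelalisib (log2 fold change −0.044 ± 0.149 (SE), adjusted p = 0.906), and the groups overlapped. PIK3CD, which encodes the catalytic subunit that idelalisib binds, was at 274, 199 and 277 CPM with ibrutinib and 199, 211 and 211 CPM with idelalisib (log2 fold change −0.27 ± 0.109 (SE), adjusted p = 0.132), again with overlap, where ibrutinib library 2 lay at the level of the idelalisib libraries. TEC, a kinase related to BTK that ibrutinib also binds, was at 27.1, 32.5 and 28.1 CPM with ibrutinib and 30.2, 34.4 and 34.2 CPM with idelalisib (log2 fold change 0.17 ± 0.0937 (SE), adjusted p = 0.267). The other class I subunits PIK3CA (−0.13, adjusted p = 0.209) and PIK3R1 (−0.38, adjusted p = 0.0573) were not called either. Their groups did not overlap, however, with PIK3R1 at 92.2, 80.9 and 92.7 CPM with ibrutinib and 65.2, 69.7 and 69.6 CPM with idelalisib. PIK3CB was lower with idelalisib, at 27.9, 30.6 and 29.0 CPM with ibrutinib and 24.2, 22.9 and 23.7 CPM with idelalisib (log2 fold change −0.31 ± 0.0606 (SE), adjusted p = 0.00717), with no overlap. That call was lost with the 6 libraries alone or the length offset (adjusted p = 0.0547 to 0.0574).

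Among the genes of proximal BCR signalling, 2 of 34 tested members were higher with idelalisib and 5 lower (median log2 fold change −0.087), beside a median of −0.0025 over all genes. PRKCB, the protein kinase C that links PLCG2 to NF-kB in B cells, was at 134.6, 119 and 126 CPM with ibrutinib and 84.3, 96.03 and 92.0 CPM with idelalisib (log2 fold change −0.48 ± 0.0675 (SE), adjusted p = 0.00157). PIK3AP1, the adaptor BCAP that brings PI3K to the receptor complex, was at 526, 468 and 522 CPM with ibrutinib and 375, 403 and 404 CPM with idelalisib (log2 fold change −0.36 ± 0.0638 (SE), adjusted p = 0.00435). Neither gene's groups overlapped. CD79B, a signalling chain of the receptor, was higher with idelalisib (log2 fold change 0.36 ± 0.0942 (SE), adjusted p = 0.0244), but not without ibrutinib library 1, 2 or 3 or idelalisib library 1 or 3 (adjusted p = 0.0565 to 0.114) or with library size scaling or the length offset (adjusted p = 0.106 to 0.145). Of the PI3K, AKT and mTOR machinery, 2 of 32 tested members were higher with idelalisib and 8 lower (median log2 fold change −0.19). PIK3R6, a regulatory subunit of PI3Kγ, had the lowest fold change of the list, at 75.7, 68.4 and 66.4 CPM with ibrutinib and 51.2, 54.0 and 47.1 CPM with idelalisib (log2 fold change −0.47 ± 0.0806 (SE), adjusted p = 0.00388). RPTOR, the defining subunit of mTORC1, was at 62.6, 61.6 and 57.4 CPM with ibrutinib and 47.5, 50.002 and 50.9 CPM with idelalisib (log2 fold change −0.29 ± 0.0628 (SE), adjusted p = 0.0105), a gene named after its values were seen. RHEB, which activates mTORC1, went the other way (0.32, adjusted p = 0.0481). The call was lost without ibrutinib library 1, 2 or 3 or idelalisib library 1 or 3 (adjusted p = 0.0573 to 0.225) or with library size scaling, no filter or the 6 libraries alone (adjusted p = 0.0569 to 0.294). Proximal BCR genes had 0 higher and 2 lower without ibrutinib library 1 or 3 or idelalisib library 1 and 0 and 3 without idelalisib library 3. There were 0 higher and 16 lower with library size scaling, 2 and 3 with upper quartile scaling, 2 and 2 with no filter and 1 and 2 with the 6 libraries alone or the length offset. The PI3K machinery had 0 higher and 4 lower without ibrutinib library 1 or 3 and 0 and 5 without idelalisib library 1. There were 0 higher and 15 lower with library size scaling, 0 and 5 with no filter, 1 and 5 with the 6 libraries alone and 2 and 5 with the length offset.

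Genes that FOXO factors are known to activate, together with feedback genes of the PI3K pathway, gave no shared direction: 3 of 33 tested members were higher with idelalisib and 2 lower (median log2 fold change 0.11), and the sign of the median turned with library size scaling. FOXO1, a transcription factor held in check by AKT, was itself lower with idelalisib, at 119, 107 and 114 CPM with ibrutinib and 84.8, 95.6 and 91.3 CPM with idelalisib (log2 fold change −0.33 ± 0.0625 (SE), adjusted p = 0.00606), without overlap. DDIT4, an inhibitor of mTORC1, was also lower (185.1, 171 and 180.4 CPM with ibrutinib and 142.6, 142.2 and 145 CPM with idelalisib; log2 fold change −0.32 ± 0.0481 (SE), adjusted p = 0.00222). TXNIP, a brake on glucose uptake, was higher (log2 fold change 0.35 ± 0.0761 (SE), adjusted p = 0.0113), except without idelalisib library 3 (adjusted p = 0.0698) or with library size scaling (adjusted p = 0.126). IRS2, an adaptor of insulin signalling, was higher too (0.35, adjusted p = 0.0406), but the call was lost whichever of the 6 libraries was left out and with limma-voom, library size scaling, no filter or the 6 libraries alone (adjusted p = 0.0623 to 0.303). The sequence TGTTTAC, a FOXO motif searched on both strands, stood in 7 of the 30 list promoters that RefSeq gave (23.3%), against 3.34% of all 27305 promoters of the same length. The FOXO list had 1 higher and 2 lower without ibrutinib library 1 or idelalisib library 1 and 0 and 3 without idelalisib library 3. There were 0 higher and 5 lower with library size scaling.

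Genes that BCR engagement induces moved in both directions: 7 of 34 tested members were higher with idelalisib and 9 lower (median log2 fold change −0.19). CD69, an early activation antigen that also retains lymphocytes in tissue, was at 113, 132.6 and 128 CPM with ibrutinib and 287.8, 244 and 286.5 CPM with idelalisib (log2 fold change 1.13 ± 0.0798 (SE), adjusted p = 0.000317), and at 63.4, 60.1 and 60.9 CPM in the DMSO libraries. Every idelalisib library exceeded every ibrutinib library, and both drugs stood above DMSO. CCL3, a chemokine that B cells secrete after BCR stimulation, was at 30.1, 31.5 and 33.5 CPM with ibrutinib and 62.3, 58.1 and 65.1 CPM with idelalisib (log2 fold change 0.97 ± 0.0905 (SE), adjusted p = 0.000582). Here the groups did not overlap, and the DMSO libraries (52.2, 43.9 and 49.8 CPM) lay between them. The immediate early transcription factor genes EGR1, EGR2 and EGR3 were higher with idelalisib at very low levels, and they were named after their values were seen. EGR3 was at 1.02, 0.833 and 0.674 CPM with ibrutinib and 1.93, 1.99 and 1.85 CPM with idelalisib (log2 fold change 1.18 ± 0.194 (SE), adjusted p = 0.00315), against 5.57, 4.14 and 5.47 CPM with DMSO. EGR1 was at 0.76, 0 and 0.653 CPM with ibrutinib and 2.08, 1.94 and 2.05 CPM with idelalisib and EGR2 at 0.88, 0.5 and 0.479 CPM with ibrutinib and 1.81, 2.01 and 1.60 CPM with idelalisib. EGR1 (2.07, adjusted p = 0.0411) had no count in ibrutinib library 2, and EGR2 gave 1.53 (adjusted p = 0.044). EGR1 lost its call without ibrutinib library 1 or 3 or idelalisib library 1, 2 or 3 (adjusted p = 0.0576 to 0.102) or with no filter or the 6 libraries alone (adjusted p = 0.0574 to 0.168). EGR2 lost its call without ibrutinib library 1, 2 or 3 or idelalisib library 1, 2 or 3 (adjusted p = 0.0627 to 0.144) or with limma-voom, library size scaling, no filter or counts divided by 8/3 (adjusted p = 0.0513 to 0.465). JUN, a subunit of AP-1 named on the same terms, was at 6.54, 5.24 and 6.72 CPM with ibrutinib and 9.84, 10.03 and 9.69 CPM with idelalisib (log2 fold change 0.67 ± 0.0982 (SE), adjusted p = 0.00188). BCR-induced genes had 4 higher and 7 lower without ibrutinib library 1 or idelalisib library 3. There were 6 higher and 14 lower with library size scaling.

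Other BCR-induced genes were lower with idelalisib. CCL22, a chemokine that attracts CCR4-bearing T cells, was at 94.4, 75.9 and 86.7 CPM with ibrutinib and 43.0, 43.4 and 46.1 CPM with idelalisib (log2 fold change −0.96 ± 0.0748 (SE), adjusted p = 0.000322). JUNB, another AP-1 subunit, was at 54.2, 42.2 and 47.9 CPM with ibrutinib and 28.0, 30.6 and 30.1 CPM with idelalisib (log2 fold change −0.70 ± 0.0847 (SE), adjusted p = 0.000951). The groups were separate for both, and the DMSO levels (98.6, 102 and 106 CPM for CCL22, 59.9, 56.7 and 55.9 CPM for JUNB) were above those of idelalisib. MYC, a target of both pathways, was at 92.3 to 208 CPM with ibrutinib and at 156, 162 and 9.36 CPM with idelalisib (log2 fold change −0.57 ± 0.943 (SE), adjusted p = 0.784), with idelalisib library 3 far below its companions, and no difference was detectable. The ERK feedback genes hardly separated the drugs: 1 of 16 tested members was higher with idelalisib and 0 lower (median log2 fold change 0.00025). The one called was ETV5, a transcription factor downstream of ERK (0.48, adjusted p = 0.00961), a call lost with library size scaling or the 6 libraries alone (adjusted p = 0.0599 to 0.0633). Library size scaling gave 0 higher and 4 lower in the list.

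Among genes that place B cells in tissue, 6 of 26 tested members were higher with idelalisib and 1 lower (median log2 fold change 0.20); library size scaling gave 4 higher and 3 lower. CXCR4, the receptor for the stromal chemokine CXCL12, was at 84.0, 86.9 and 83.2 CPM with ibrutinib and 155, 142.04 and 153 CPM with idelalisib (log2 fold change 0.82 ± 0.0626 (SE), adjusted p = 0.000322), whereas the DMSO libraries were at 81.6, 89.1 and 83.7 CPM. The ibrutinib values coincided with those of DMSO and all 3 idelalisib values were above them. RGS2, a brake on signalling by G protein-coupled receptors, was at 2.82, 3.26 and 3.02 CPM with ibrutinib and 8.27, 6.36 and 7.61 CPM with idelalisib (log2 fold change 1.29 ± 0.122 (SE), adjusted p = 0.000582), against 16.5, 13.9 and 13.6 CPM with DMSO. Both drugs lay below DMSO, ibrutinib further. CD44, an adhesion receptor for hyaluronan, was at 24.0, 25.4 and 41.9 CPM with ibrutinib and 49.8, 50.4 and 48.7 CPM with idelalisib (log2 fold change 0.70 ± 0.204 (SE), adjusted p = 0.0387); library 3 stood apart from the other ibrutinib libraries. Its call was lost without ibrutinib library 1 or 2 or idelalisib library 1, 2 or 3 (adjusted p = 0.0825 to 0.176) or with library size scaling or the 6 libraries alone (adjusted p = 0.0755 to 0.0762). GENCODE on GRCh38 places CD69 at chr12:9752486-9760901, minus strand, CXCR4 at chr2:136114349-136119177, minus strand and RGS2 at chr1:192809039-192812275, plus strand. No other gene named in the deposited counts overlaps any of them. Among chemokines and cytokines, 4 of 30 tested members were higher with idelalisib and 3 lower (median log2 fold change 0.11). CCL4, a close relative of CCL3 named after its values were seen (0.59, adjusted p = 0.0151), and its near-identical copy CCL4L2 (0.60, adjusted p = 0.0188) can share reads and are uncertain as separate results. The first call was lost without ibrutinib library 1 or idelalisib library 3 (adjusted p = 0.0525 to 0.077) or with the 6 libraries alone or the length offset (adjusted p = 0.0507 to 0.211). The second was lost without ibrutinib library 1 or 3 or idelalisib library 3 (adjusted p = 0.062 to 0.0917) or with the 6 libraries alone, the joint fit of 36 libraries or the length offset (adjusted p = 0.0634 to 0.0899). TNFSF10, the death ligand TRAIL, was at 39.9, 39.5 and 39.8 CPM with ibrutinib and 57.9, 56.6 and 65.3 CPM with idelalisib (log2 fold change 0.59 ± 0.0978 (SE), adjusted p = 0.00325). Chemokines and cytokines had 2 higher and 2 lower without ibrutinib library 1 and 2 and 3 without idelalisib library 3. There were 4 higher and 5 lower with library size scaling.

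Several NF-kB genes were lower with idelalisib. Of the subunits and feedback genes, 1 of 27 tested members was higher with idelalisib and 7 lower (median log2 fold change −0.15). RELB, the subunit of the alternative pathway, was at 74.3, 61.3 and 69.4 CPM with ibrutinib and 38.9, 40.2 and 42.0 CPM with idelalisib (log2 fold change −0.76 ± 0.077 (SE), adjusted p = 0.000644). Its partner NFKB2 was at 196, 162 and 174 CPM with ibrutinib and 114, 117 and 112 CPM with idelalisib (log2 fold change −0.64 ± 0.0661 (SE), adjusted p = 0.000661). Both showed a clear gap between the drugs, and ibrutinib was near the DMSO level (64.1, 60.3 and 68.3 CPM for RELB, 187, 183.7 and 190.3 CPM for NFKB2). NFKB1, the p105 and p50 gene of the canonical pathway (log2 fold change −0.52 ± 0.0789 (SE), adjusted p = 0.00221), and TNFAIP3, the feedback inhibitor A20 (log2 fold change −0.50 ± 0.0672 (SE), adjusted p = 0.00136), followed. These 4 calls held under every alternative and without any single library. The single member called higher was BCL2A1, an anti-apoptotic NF-kB target (0.26, adjusted p = 0.0415), and that call was lost without ibrutinib library 1, 2 or 3 or idelalisib library 1 or 3 (adjusted p = 0.0692 to 0.188) or with library size scaling, no filter, the 6 libraries alone or the length offset (adjusted p = 0.0521 to 0.762). NF-kB genes had 0 higher and 13 lower with library size scaling.

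Genes of B-cell and plasma-cell fate went both ways: 3 of 32 tested members were higher with idelalisib and 8 lower (median log2 fold change −0.10). JCHAIN, which joins IgM and IgA into polymers, was at 818, 756 and 891 CPM with ibrutinib and 1408, 1220.0 and 1816 CPM with idelalisib (log2 fold change 0.85 ± 0.123 (SE), adjusted p = 0.00184), and at 402, 395 and 384 CPM with DMSO. IGHD, the constant region of the IgD heavy chain, was at 7.74, 10.1 and 7.75 CPM with ibrutinib and 19.5, 19.7 and 17.8 CPM with idelalisib (log2 fold change 1.16 ± 0.152 (SE), adjusted p = 0.00129). Both were higher in every idelalisib library. IRF4, a transcription factor of activated B cells and plasma cells, was in contrast at 1205, 1051 and 1184 CPM with ibrutinib and 729, 794 and 782 CPM with idelalisib (log2 fold change −0.58 ± 0.0635 (SE), adjusted p = 0.000816). PAX5, which holds B-cell identity and was named after its values were seen, was lower as well (−0.32, adjusted p = 0.0246), with the call lost without ibrutinib library 1 or 3 or idelalisib library 1 or 3 (adjusted p = 0.0529 to 0.0999) or with no filter, the 6 libraries alone or the length offset (adjusted p = 0.0657 to 0.1). SPIB, a B-lineage factor, was higher (0.73, adjusted p = 0.0462). This call was lost without ibrutinib library 2 or 3 or idelalisib library 1 or 3 (adjusted p = 0.0675 to 0.208) or with limma-voom, library size scaling, no filter, the 6 libraries alone or the joint fit of 36 libraries (adjusted p = 0.0518 to 0.201). Fate genes had 3 higher and 2 lower without ibrutinib library 1, 2 and 2 without ibrutinib library 3 and 3 and 3 without idelalisib library 1. There were 2 higher and 13 lower with library size scaling, 2 and 3 with no filter, 2 and 2 with the 6 libraries alone and 3 and 4 with the length offset.

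In the MHC class II pathway, which presents antigen to helper T cells, 5 of 20 tested members were higher with idelalisib and 0 lower (median log2 fold change 0.15). HLA-DRA, the alpha chain of HLA-DR, was at 1469, 1543 and 1539 CPM with ibrutinib and 2264, 1942 and 2334 CPM with idelalisib (log2 fold change 0.52 ± 0.068 (SE), adjusted p = 0.00126). HLA-DMB, a subunit of the peptide exchanger HLA-DM, was at 16.0, 21.5 and 17.0 CPM with ibrutinib and 42.3, 28.3 and 31.7 CPM with idelalisib (log2 fold change 0.91 ± 0.168 (SE), adjusted p = 0.00513). CTSS, the protease that degrades the invariant chain CD74, was at 157, 174 and 179.9 CPM with ibrutinib and 257, 217 and 245.5 CPM with idelalisib (log2 fold change 0.49 ± 0.0806 (SE), adjusted p = 0.00319). For these 3 genes every idelalisib value lay above every ibrutinib value, and ibrutinib lay above DMSO. Under library size scaling the list median was −0.019, with 3 members higher and 3 lower, so the direction of the list as a whole depends on the scaling. HLA-DOB, an inhibitor of HLA-DM (0.32, adjusted p = 0.0373), lost its call without ibrutinib library 1, 2 or 3 or idelalisib library 1, 2 or 3 (adjusted p = 0.0808 to 0.15) or with library size scaling, the joint fit of 36 libraries or the length offset (adjusted p = 0.0716 to 0.32). MHC class II genes had 3 higher and 0 lower without ibrutinib library 1 or idelalisib library 1 or 3.

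Called heat shock genes were all lower: with idelalisib 0 of 21 tested members were higher and 15 lower, and 6 were not called (median log2 fold change −0.47). The list holds chaperones and co-chaperones that fold proteins and that heat shock factor 1 activates under stress. Their promoters are shown because the members moved together: RefSeq (GRCh38.p14) gave promoters for 19 of the 22 members, and the sequence GAANNTTC, an inverted pair of heat shock element units that reads the same on both strands, stood in 9 of them (47.4%), against 6.78% of all 27305 promoters of the same length. The motif was chosen after the values were seen. The stretches below run from 130 bases before the annotated start to 20 bases from it, on the coding strand, with GAANNTTC in capitals. HSP90AA1 is at chr14:102087025-102087174, minus strand, HSPA1A at chr6:31815413-31815562, plus strand and HSPA1B at chr6:31827608-31827757, plus strand.
HSP90AA1: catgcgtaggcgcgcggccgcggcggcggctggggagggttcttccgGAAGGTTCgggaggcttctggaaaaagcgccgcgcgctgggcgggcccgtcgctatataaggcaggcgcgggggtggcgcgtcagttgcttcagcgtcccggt
HSPA1A: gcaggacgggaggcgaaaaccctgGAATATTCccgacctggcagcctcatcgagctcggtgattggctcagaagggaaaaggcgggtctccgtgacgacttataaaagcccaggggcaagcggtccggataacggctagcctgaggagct
HSPA1B: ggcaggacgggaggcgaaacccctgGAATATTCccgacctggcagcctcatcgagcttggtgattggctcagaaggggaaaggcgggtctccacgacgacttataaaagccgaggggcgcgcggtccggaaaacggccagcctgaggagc

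Counted from 0 at the annotated start, the motif began at position −83 in HSP90AA1, −106 in HSPA1A and −105 in HSPA1B, whose stretches are nearly the same sequence.

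HSP90AA1, the inducible cytosolic HSP90, was at 672, 569 and 463 CPM with ibrutinib and 322, 286.01 and 292 CPM with idelalisib (log2 fold change −0.92 ± 0.195 (SE), adjusted p = 0.00964). Every idelalisib library was below every ibrutinib library, and the DMSO libraries (398, 607 and 641 CPM) overlapped those of ibrutinib. HSPA1A was at 9.60, 6.97 and 8.92 CPM with ibrutinib and 4.06, 5.06 and 4.67 CPM with idelalisib (log2 fold change −0.89 ± 0.123 (SE), adjusted p = 0.00155) and HSPA1B at 14.0, 11.3 and 14.4 CPM with ibrutinib and 6.20, 7.95 and 7.40 CPM with idelalisib (log2 fold change −0.88 ± 0.112 (SE), adjusted p = 0.00113). The call of HSPA1A was lost with the joint fit of 36 libraries (adjusted p = 0.556). These genes encode the inducible HSP70, can share reads to an extent not measured here and are uncertain as separate results. Both drugs put them below DMSO (31.3, 30.9 and 33.3 CPM for HSPA1B), idelalisib further. HSPH1, an HSP110 exchange factor for HSP70, was at 106, 101 and 114 CPM with ibrutinib and 62.3, 61.4 and 60.7 CPM with idelalisib (log2 fold change −0.80 ± 0.0814 (SE), adjusted p = 0.000644). Unlike HSPA1B, it was higher with ibrutinib than in the DMSO libraries (59.3, 67.3 and 64.4 CPM) and at the DMSO level with idelalisib. The constitutive members followed the same contrast and were named after their values were seen. HSPA8, the constitutive HSC70, was at 824, 736 and 859 CPM with ibrutinib and 539, 489 and 571 CPM with idelalisib (log2 fold change −0.60 ± 0.11 (SE), adjusted p = 0.00501). DNAJA1, an HSP40 co-chaperone, was at 133.3, 106 and 132 CPM with ibrutinib and 75.6, 81.2 and 84.5 CPM with idelalisib (log2 fold change −0.62 ± 0.0999 (SE), adjusted p = 0.00291). HSP90AB1, the constitutive HSP90, was at 1512, 1314 and 1511 CPM with ibrutinib and 991, 1010.2 and 1055 CPM with idelalisib (log2 fold change −0.50 ± 0.0623 (SE), adjusted p = 0.00105). None of the 3 overlapped between the drugs. Between 12 and 16 members of the list were lower, and none higher, in every alternative and with any one library left out.

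Cytosolic ribosomal protein genes went the other way. Of 76 tested, 61 were higher with idelalisib, 0 were lower and 15 were not called, with a median log2 fold change of 0.53 and a range from −0.44 (RPS26, adjusted p = 0.283) to 0.92 (RPL26). These genes share a promoter form, a C at the transcription start followed by pyrimidines, which their messenger RNAs carry as the 5′ end through which mTORC1 governs their translation. A C at the annotated start with 4 pyrimidines after it was found in 46 of the 60 members with a RefSeq promoter (76.7%), against 4.08% of all promoters, a search chosen after the values were seen. Among members with a promoter entry, those with the largest fold changes are shown, from 40 bases before the annotated start to 20 bases from it (GRCh38.p14, coding strand), with the run of pyrimidines that begins with that C in capitals. RPL26 is at chr17:8383174-8383233, minus strand, RPL32 at chr3:12841546-12841605, minus strand and RPS13 at chr11:17077648-17077707, minus strand.
RPL26: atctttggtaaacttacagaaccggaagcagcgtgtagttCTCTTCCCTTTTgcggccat
RPL32: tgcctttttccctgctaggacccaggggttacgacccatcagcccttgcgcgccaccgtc
RPS13: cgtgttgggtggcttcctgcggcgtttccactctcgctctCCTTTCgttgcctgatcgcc

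The run was 12 bases long in RPL26 and 6 in RPS13, and the window of RPL32 held none at the annotated start.

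RPL26 was at 342, 444 and 467 CPM with ibrutinib and 900.0, 726 and 752 CPM with idelalisib (log2 fold change 0.92 ± 0.128 (SE), adjusted p = 0.00155). RPS15A was at 754, 956 and 777 CPM with ibrutinib and 1580.3, 1380.1 and 1735 CPM with idelalisib (log2 fold change 0.92 ± 0.113 (SE), adjusted p = 0.00105). RPS13 was at 628, 513 and 649 CPM with ibrutinib and 1109.8, 979 and 1206 CPM with idelalisib (log2 fold change 0.88 ± 0.102 (SE), adjusted p = 0.000944). All 3 showed a gap between the drugs that no library bridged. RPL32 was at 650.2, 978 and 677 CPM with ibrutinib and 1633, 1562 and 1169.7 CPM with idelalisib (log2 fold change 0.92 ± 0.198 (SE), adjusted p = 0.0104), with its call lost without ibrutinib library 1 (adjusted p = 0.0555). The summed level of the list was 66540.0 ± 1950.0 CPM with ibrutinib and 95860.0 ± 8270.0 CPM with idelalisib (SD, n = 3 libraries each). Ribosomal protein genes have many processed pseudogenes, so reads can be shared between copies.

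The rise coincided with 2 features of the libraries. Ribosomal protein transcripts are short, with canonical lengths from 295 to 7573 bases and a median of 878. Among the other protein-coding genes, those up to 600 bases long were called higher in 27.7% and lower in 1.03%, whereas over 4000 bases 3.50% were higher and 15.6% lower. The structural RNA genes RPPH1, the RNA of ribonuclease P (0.98 (adjusted p = 0.00223)), RN7SK, which restrains transcription elongation (0.83 (adjusted p = 0.0014)), and RN7SL1 (0.76 (adjusted p = 0.00492)) and RN7SL2 (0.81 (adjusted p = 0.00759)), near-identical RNAs of the signal recognition particle, were higher as well. With an offset for transcript length estimated without the list, 48 of 76 ribosomal protein genes were higher and 0 lower (median 0.38); library size scaling also gave 48 (median 0.36), and leaving out 1 library gave 49 to 63. The heat shock list also gave 15 lower with the length offset (median −0.47).

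The factors that build ribosomes moved against the ribosomal proteins. Of the MYC-driven and ribosome biogenesis genes, 1 of 38 tested members was higher with idelalisib and 19 lower (median log2 fold change −0.35). NCL, the nucleolar protein nucleolin, was at 416, 321 and 415 CPM with ibrutinib and 226, 233.7 and 227 CPM with idelalisib (log2 fold change −0.75 ± 0.099 (SE), adjusted p = 0.00131). NOLC1, a nucleolar chaperone of small nucleolar ribonucleoproteins, was at 113, 92.9 and 114 CPM with ibrutinib and 65.6, 61.0 and 77.6 CPM with idelalisib (log2 fold change −0.65 ± 0.118 (SE), adjusted p = 0.00482). NOP14 (log2 fold change −0.62 ± 0.103 (SE), adjusted p = 0.00325) and NOP2 (log2 fold change −0.58 ± 0.102 (SE), adjusted p = 0.00402), which process the small and the large subunit, were also lower. Every idelalisib value of these 4 genes was below every ibrutinib value. The member that went up was NPM1, a nucleolar chaperone named after its values were seen (0.21, adjusted p = 0.0383), and its call was lost without ibrutinib library 1 or 2 or idelalisib library 1 or 3 (adjusted p = 0.0756 to 0.232) or with library size scaling, the 6 libraries alone, the joint fit of 36 libraries or the length offset (adjusted p = 0.0593 to 0.692). The E-box CACGTG stood in 13 of the 32 list promoters given (40.6%), against 7.42% of all promoters, on either strand.

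Several enzymes of anabolic metabolism were lower with idelalisib. In glycolysis and the hypoxia response, 0 of 34 tested members were higher with idelalisib and 14 lower (median log2 fold change −0.18). ENO1, enolase, was at 3563, 3149.7 and 3249 CPM with ibrutinib and 2448, 2205 and 2336 CPM with idelalisib (log2 fold change −0.51 ± 0.0598 (SE), adjusted p = 0.000944). GPI, an early isomerase of the pathway, was at 550.4, 498 and 598 CPM with ibrutinib and 393, 391 and 400.4 CPM with idelalisib (log2 fold change −0.47 ± 0.068 (SE), adjusted p = 0.00177), and HK1, which phosphorylates glucose, at 81.8, 68.7 and 76.8 CPM with ibrutinib and 49.7, 58.2 and 53.001 CPM with idelalisib (log2 fold change −0.50 ± 0.0839 (SE), adjusted p = 0.00354). PFKFB3, which makes the activator of phosphofructokinase, had the largest difference, at 32.2, 29.9 and 28.6 CPM with ibrutinib and 21.2, 12.7 and 12.6 CPM with idelalisib (log2 fold change −0.97 ± 0.216 (SE), adjusted p = 0.0125). No glycolytic gene named here had overlapping groups. Glycolysis and hypoxia genes had 0 higher and 8 lower with the 6 libraries alone.

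Lipid synthesis followed. Of the cholesterol synthesis genes, 1 of 24 tested members was higher with idelalisib and 6 lower (median log2 fold change −0.12), and of the fatty acid synthesis genes, 1 of 16 tested members was higher with idelalisib and 5 lower (median log2 fold change −0.14). LSS, lanosterol synthase, was at 183, 168 and 174 CPM with ibrutinib and 104, 111 and 108 CPM with idelalisib (log2 fold change −0.70 ± 0.0663 (SE), adjusted p = 0.000582). HMGCS1, which makes HMG-CoA, was at 302, 304 and 339 CPM with ibrutinib and 231.9, 234.2 and 233.7 CPM with idelalisib (log2 fold change −0.43 ± 0.0573 (SE), adjusted p = 0.00129). For both genes ibrutinib lay closer to DMSO than idelalisib did (148, 165 and 171 CPM for LSS, 357, 381 and 358 CPM for HMGCS1). NSDHL (−0.46, adjusted p = 0.00325) and MVD (−0.37, adjusted p = 0.00347), further enzymes of the route, were lower too. ACLY, which makes cytosolic acetyl-CoA from citrate, was at 344, 295 and 369.9 CPM with ibrutinib and 219, 207 and 212 CPM with idelalisib (log2 fold change −0.66 ± 0.0752 (SE), adjusted p = 0.000944). FASN, fatty acid synthase, was at 322, 286.7 and 339 CPM with ibrutinib and 193, 219.9 and 237.9 CPM with idelalisib (log2 fold change −0.54 ± 0.0844 (SE), adjusted p = 0.00248), with DMSO at 778, 750.0 and 757 CPM, so that both drugs lay below DMSO and idelalisib lowest. ACSS2, which makes acetyl-CoA from acetate (−0.46, adjusted p = 0.00213), and FADS2, a desaturase (−0.60, adjusted p = 0.0119), were lower as well, FADS2 not with the 6 libraries alone (adjusted p = 0.0701). The sterol element TCACNCCAC was in the promoter of 1 of 18 cholesterol genes and 0 of 16 fatty acid genes, against 1.14% of all promoters. Sterol efflux genes gave 1 of 11 higher and 0 lower, the lysosomal cholesterol carrier NPC2 (0.51, adjusted p = 0.016), with the call lost without ibrutinib library 1 or idelalisib library 1 or 3 (adjusted p = 0.0594 to 0.0811) or with the length offset (adjusted p = 0.0843). Cholesterol genes had 0 higher and 13 lower with library size scaling. Fatty acid genes had 0 higher and 8 lower with library size scaling.

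Of the amino acid response genes that ATF4 activates, 1 of 41 tested members was higher with idelalisib and 10 lower (median log2 fold change −0.15). The aminoacyl-tRNA synthetase genes AARS, at 251, 206 and 247 CPM with ibrutinib and 138, 139 and 143.2 CPM with idelalisib (log2 fold change −0.75 ± 0.0713 (SE), adjusted p = 0.000582), and GARS, at 165, 138 and 156 CPM with ibrutinib and 93.7, 95.3 and 97.6 CPM with idelalisib (log2 fold change −0.68 ± 0.0734 (SE), adjusted p = 0.000786), were lower with idelalisib without overlap. For both genes ibrutinib already lay far below DMSO (495, 509 and 471 CPM for AARS, 381, 359 and 331 CPM for GARS). PYCR1, an enzyme of proline synthesis, was lower too (−0.69, adjusted p = 0.0383), except without ibrutinib library 1 or idelalisib library 1, 2 or 3 (adjusted p = 0.0764 to 0.136) or with limma-voom, upper quartile scaling, no filter, the 6 libraries alone or the length offset (adjusted p = 0.0506 to 0.0732). The ATF4 motif TGATGNAA stood in 8 of 34 promoters given (23.5%), those of AARS and GARS included, against 3.6% of all promoters. Of the NRF2 oxidative stress genes, 0 of 26 tested members were higher with idelalisib and 8 lower (median log2 fold change −0.25). HMOX1, haem oxygenase 1, was at 6.96, 6.57 and 7.29 CPM with ibrutinib and 4.27, 4.83 and 4.21 CPM with idelalisib (log2 fold change −0.64 ± 0.105 (SE), adjusted p = 0.00307), and PGD, of the pentose phosphate pathway, at 163, 149 and 134.5 CPM with ibrutinib and 88.5, 105 and 111 CPM with idelalisib (log2 fold change −0.55 ± 0.105 (SE), adjusted p = 0.00584). TXNRD1, thioredoxin reductase, was at 103, 181 and 104 CPM with ibrutinib and 77.9, 71.1 and 68.1 CPM with idelalisib (log2 fold change −0.84 ± 0.177 (SE), adjusted p = 0.00961), with library 2 high among the ibrutinib libraries and the call lost with the 6 libraries alone (adjusted p = 0.0561). The motif TGACNNNGC stood in 5 of 20 promoters (25%), against 13.6% of all. ATF4 targets had 0 higher and 6 lower without idelalisib library 1 or 3. There were 0 higher and 20 lower with library size scaling and 0 and 4 with the 6 libraries alone. NRF2 targets had 0 higher and 5 lower without ibrutinib library 1 or idelalisib library 1 and 0 and 4 without ibrutinib library 3. There were 0 higher and 16 lower with library size scaling, 0 and 4 with no filter and 0 and 3 with the 6 libraries alone.

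Cell cycle genes separated the drugs in part. Of the DNA replication genes, 4 of 46 tested members were higher with idelalisib and 16 lower (median log2 fold change −0.19). The helicase subunits MCM3, at 240.2, 243 and 285.97 CPM with ibrutinib and 157, 168 and 149.6 CPM with idelalisib (log2 fold change −0.70 ± 0.113 (SE), adjusted p = 0.00312), and MCM6, at 145, 124 and 147 CPM with ibrutinib and 93.4, 93.8 and 94.1 CPM with idelalisib (log2 fold change −0.56 ± 0.0624 (SE), adjusted p = 0.000816), were lower with idelalisib. MCM7, named after its values were seen (log2 fold change −0.49 ± 0.0727 (SE), adjusted p = 0.00201), and UHRF1, which maintains DNA methylation at replication forks (log2 fold change −0.53 ± 0.0604 (SE), adjusted p = 0.000944), followed. Each of the 4 had lower values in every idelalisib library. Mitotic genes were split evenly: 8 of 45 tested members were higher with idelalisib and 8 lower (median log2 fold change 0.031), the sign of the median turning with library size scaling. CKS2, a small CDK-binding protein, was at 69.9, 84.4 and 81.7 CPM with ibrutinib and 128, 113 and 149 CPM with idelalisib (log2 fold change 0.72 ± 0.104 (SE), adjusted p = 0.00177), and CDK1, the mitotic kinase, named after its values were seen, at 125, 128 and 134.7 CPM with ibrutinib and 177, 155 and 180.4 CPM with idelalisib (log2 fold change 0.40 ± 0.0639 (SE), adjusted p = 0.00287). TPX2, a spindle assembly factor, was lower, at 169, 154 and 187 CPM with ibrutinib and 122, 133.8 and 124 CPM with idelalisib (log2 fold change −0.43 ± 0.0685 (SE), adjusted p = 0.00294). MAD2L1 (0.56, adjusted p = 0.00229), of the spindle checkpoint, and CKS1B (0.51, adjusted p = 0.00398), a relative of CKS2, were higher. Replication genes had 2 higher and 11 lower without ibrutinib library 1, 2 and 12 without idelalisib library 1 and 2 and 14 without idelalisib library 3. There were 1 higher and 28 lower with library size scaling and 3 and 8 with the 6 libraries alone. Mitotic genes had 4 higher and 6 lower without ibrutinib library 1, 8 and 5 without ibrutinib library 3, 5 and 4 without idelalisib library 1 and 5 and 7 without idelalisib library 3. There were 4 higher and 15 lower with library size scaling and 5 and 3 with the 6 libraries alone.

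Among cyclins and CDK inhibitors, 0 of 17 tested members were higher with idelalisib and 3 lower (median log2 fold change 0.022). CCND2, a G1 cyclin that PI3K and BCR signals maintain, was at 25.3, 22.6 and 22.98 CPM with ibrutinib and 9.04, 12.7 and 11.6 CPM with idelalisib (log2 fold change −1.09 ± 0.113 (SE), adjusted p = 0.000661), on chromosome 12 at chr12:4269771-4305353, plus strand, where its antisense partner CCND2-AS1 overlaps it. The groups were far apart. CCND1 (−0.64, adjusted p = 0.0115) lost its call without ibrutinib library 1 or idelalisib library 1 (adjusted p = 0.0501 to 0.0506) or with the 6 libraries alone (adjusted p = 0.0529). Its partner kinase CDK6 (−0.29, adjusted p = 0.0205) lost it without ibrutinib library 1 or 3 or idelalisib library 1 (adjusted p = 0.051 to 0.0661) or with no filter or the 6 libraries alone (adjusted p = 0.0701 to 0.0854). Of the p53 targets, 2 of 24 tested members were higher with idelalisib and 4 lower (median log2 fold change −0.11), in a line with mutated p53. XPC, a DNA damage sensor, was lower (log2 fold change −0.42 ± 0.0764 (SE), adjusted p = 0.00476). FAS, the death receptor, was at 35.6, 37.97 and 46.1 CPM with ibrutinib and 63.6, 93.0 and 85.4 CPM with idelalisib (log2 fold change 1.02 ± 0.266 (SE), adjusted p = 0.0254), with the call lost without ibrutinib library 1 or 2 or idelalisib library 2 or 3 (adjusted p = 0.0645 to 0.111). In the BCL2 family, 1 of 15 tested members was higher with idelalisib and 2 lower (median log2 fold change −0.041). The anti-apoptotic BCL2L1 (−0.52, adjusted p = 0.0195) and the pro-apoptotic BAX (−0.40, adjusted p = 0.0273) were both lower. BCL2L1 lost its call without ibrutinib library 1 or 3 or idelalisib library 1 (adjusted p = 0.0577 to 0.0771) or with no filter or the 6 libraries alone (adjusted p = 0.0505 to 0.0824). BAX lost its call without ibrutinib library 1 or 3 or idelalisib library 1 or 3 (adjusted p = 0.0733 to 0.104) or with no filter (adjusted p = 0.0553). Targets of p53 had 0 higher and 1 lower without ibrutinib library 1, 1 and 1 without ibrutinib library 3 and 2 and 2 without idelalisib library 1. There were 1 higher and 11 lower with library size scaling and 4 and 3 with the length offset. Cyclins and CDK inhibitors had 0 higher and 1 lower without ibrutinib library 1 or idelalisib library 1.

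Of the nuclear-encoded respiratory chain subunits, 12 of 55 tested members were higher with idelalisib and 3 lower (median log2 fold change 0.19). NDUFA4 was at 182, 199 and 199.8 CPM with ibrutinib and 302, 241 and 316 CPM with idelalisib (log2 fold change 0.56 ± 0.097 (SE), adjusted p = 0.00387) and UQCRB, of complex III, at 46.9, 46.3 and 46.7 CPM with ibrutinib and 66.3, 62.9 and 70.9 CPM with idelalisib (log2 fold change 0.52 ± 0.0706 (SE), adjusted p = 0.00145), both without overlap. These are short transcripts, and with the length offset 5 members were higher and 3 lower (median 0.038). Respiratory chain subunits had 3 higher and 1 lower without ibrutinib library 1, 8 and 1 without ibrutinib library 3, 7 and 3 without idelalisib library 1 and 4 and 1 without idelalisib library 3. There were 5 higher and 10 lower with library size scaling. Mitochondrially encoded genes gave 1 of 15 higher and 0 lower, with a median of 0.40, the call being MT-CO1 (0.53, adjusted p = 0.0354). It was lost without ibrutinib library 2 or 3 or idelalisib library 1 or 3 (adjusted p = 0.0753 to 0.131) or with library size scaling, no filter or the length offset (adjusted p = 0.0504 to 0.114).

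Of the interferon-stimulated genes, 2 of 48 tested members were higher with idelalisib and 7 lower (median log2 fold change −0.055). The share called was 18.8%, beside 15.4% of all genes tested. GBP4, a guanylate-binding protein, was at 64.2, 58.0 and 66.5 CPM with ibrutinib and 42.9, 43.7 and 46.6 CPM with idelalisib (log2 fold change −0.50 ± 0.0679 (SE), adjusted p = 0.00138), against 14.8, 14.4 and 14.1 CPM with DMSO, so both drugs stood well above DMSO and ibrutinib highest. PARP14 (−0.41, adjusted p = 0.00581) and the RNA sensor IFIH1 (−0.36, adjusted p = 0.0104) gave the same order. For endoplasmic reticulum folding, 3 of 37 tested members were higher with idelalisib and 1 lower (median log2 fold change 0.078). DNAJB9, a target of the unfolded protein response, was at 73.8, 75.3 and 72.2 CPM with ibrutinib and 107, 105 and 120.3 CPM with idelalisib (log2 fold change 0.59 ± 0.0651 (SE), adjusted p = 0.000816). In the lysosome and autophagy list, 4 of 45 tested members were higher with idelalisib and 5 lower (median log2 fold change 0.0091). GABARAPL2, an ATG8 family protein (log2 fold change 0.40 ± 0.0686 (SE), adjusted p = 0.00386), was higher and SQSTM1, the autophagy receptor p62 (log2 fold change −0.38 ± 0.0654 (SE), adjusted p = 0.00382), lower. The E-box CACGTG was in 11 of 32 lysosome promoters (34.4%), against 7.42% of all. Under library size scaling the medians of the endoplasmic reticulum and lysosome lists changed sign. Interferon-stimulated genes had 0 higher and 4 lower without ibrutinib library 1, 1 and 4 without ibrutinib library 3 and 2 and 4 without idelalisib library 1. There were 0 higher and 14 lower with library size scaling and 1 and 3 with the 6 libraries alone. Endoplasmic reticulum genes had 5 higher and 1 lower without ibrutinib library 3. There were 1 higher and 3 lower with library size scaling. Lysosome and autophagy genes had 2 higher and 1 lower without ibrutinib library 1 or 3, 3 and 1 without idelalisib library 1, 5 and 3 without idelalisib library 2 and 2 and 2 without idelalisib library 3. There were 1 higher and 11 lower with library size scaling, 6 and 2 with upper quartile scaling, 4 and 2 with no filter, 4 and 1 with the 6 libraries alone and 7 and 2 with the length offset.

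UGT2B17, the enzyme that conjugates drugs and steroids to glucuronic acid and that the study follows, was at 36.6, 37.8 and 39.5 CPM with ibrutinib and 51.3, 46.3 and 52.6 CPM with idelalisib (log2 fold change 0.40 ± 0.0787 (SE), adjusted p = 0.00696), and at 17.1, 16.6 and 17.4 CPM with DMSO. Both drugs gave more transcript than DMSO and idelalisib the most, with no overlap between groups. UGT2B15, a close paralog with which it can share reads, was at 10.2, 7.66 and 8.99 CPM with ibrutinib and 9.75, 11.9 and 12.5 CPM with idelalisib (log2 fold change 0.35 ± 0.284 (SE), adjusted p = 0.502) and overlapped. Of the aryl hydrocarbon receptor targets and UGT genes together, 4 of 11 tested members were higher with idelalisib and 0 lower (median log2 fold change 0.26). CYP1B1, a cytochrome P450 induced by that receptor, was at 152, 123 and 132.7 CPM with ibrutinib and 195, 187 and 191.7 CPM with idelalisib (log2 fold change 0.49 ± 0.0773 (SE), adjusted p = 0.00258), and TIPARP, a repressor of the receptor, was higher too (0.34, adjusted p = 0.00549), except with library size scaling (adjusted p = 0.109). Receptor targets and UGT genes had 2 higher and 1 lower with library size scaling.

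The largest single differences belonged to few known functions. Among the 15 largest rises, ZNF546, a zinc finger protein, was at 2.36, 2.86 and 2.70 CPM with ibrutinib and 16.8, 10.4 and 6.47 CPM with idelalisib (log2 fold change 2.09 ± 0.414 (SE), adjusted p = 0.00712). CNOT8, a deadenylase of the CCR4-NOT complex, was at 34.4, 32.4 and 29.9 CPM with ibrutinib and 113, 104 and 51.1 CPM with idelalisib (log2 fold change 1.47 ± 0.3 (SE), adjusted p = 0.00831). IRAK4, the kinase of Toll-like receptor signalling, was at 11.5, 11.4 and 10.2 CPM with ibrutinib and 30.6, 25.9 and 26.1 CPM with idelalisib (log2 fold change 1.32 ± 0.291 (SE), adjusted p = 0.0118). The idelalisib libraries of ZNF546 and CNOT8 were themselves uneven, while those of IRAK4 were close together. The DMSO libraries of IRAK4 were uneven, however, at 22.4, 20.5 and 7.89 CPM. Those of CNOT8 (98.8, 54.0 and 50.9 CPM) and ZNF546 (6.71, 2.56 and 7.47 CPM) were uneven too. PTBP2, a splicing repressor, was at 10.3, 11.8 and 9.77 CPM with ibrutinib and 25.6, 24.5 and 23.2 CPM with idelalisib (log2 fold change 1.203 ± 0.159 (SE), adjusted p = 0.0013). NCR3, an activating receptor known from NK cells, was at 3.56, 3.88 and 3.55 CPM with ibrutinib and 7.29, 7.12 and 7.35 CPM with idelalisib (log2 fold change 0.99 ± 0.0935 (SE), adjusted p = 0.000582), and APELA, a peptide ligand, at 5.22, 5.62 and 5.37 CPM with ibrutinib and 9.78, 10.1 and 12.4 CPM with idelalisib (log2 fold change 0.99 ± 0.117 (SE), adjusted p = 0.000944). KLRF1 (1.13), ADAM29 (1.08), C19orf38 (1.33) and PXT1 (1.06) were also among the 15, and all 4 lost their calls with the joint fit of 36 libraries (adjusted p = 0.061 to 0.156). The call of ADTRP (1.35) was lost without idelalisib library 3 (adjusted p = 0.0558) and that of SELENOT (1.02) without ibrutinib library 1 (adjusted p = 0.0565). CNOT8, FAS, IRAK4, NCR3, PXT1 and SELENOT overlap a gene on the other strand, and the counting is not stated to use strand.

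Among the 15 largest falls, DUSP22, a dual-specificity phosphatase that restrains T-cell receptor signalling, was at 141, 182 and 180.5 CPM with ibrutinib and 45.7, 42.8 and 40.6 CPM with idelalisib (log2 fold change −1.96 ± 0.246 (SE), adjusted p = 0.00111), at chr6:291630-351355, plus strand. The DMSO libraries were at 42.7, 23.1 and 21.5 CPM, so the ibrutinib libraries stood above both other groups. ZNRF1, a ubiquitin ligase, was at 6.10, 7.12 and 4.66 CPM with ibrutinib and 2.90, 3.12 and 2.81 CPM with idelalisib (log2 fold change −1.01 ± 0.168 (SE), adjusted p = 0.00332). C1orf35 was at 11.5, 11.9 and 13.7 CPM with ibrutinib and 6.55, 6.06 and 6.06 CPM with idelalisib (log2 fold change −0.99 ± 0.133 (SE), adjusted p = 0.00136) and RIMS3 at 8.12, 7.62 and 8.27 CPM with ibrutinib and 3.71, 4.94 and 4.11 CPM with idelalisib (log2 fold change −0.91 ± 0.111 (SE), adjusted p = 0.00103). HSPA2, a further HSP70 gene (−0.98), was also among them, with its call lost with the 6 libraries alone (adjusted p = 0.0551). ATF5, an ATF4 target (−1.28, adjusted p = 0.0157), lost its call without ibrutinib library 3 or idelalisib library 1 or 3 (adjusted p = 0.0629 to 0.0694) or with the 6 libraries alone (adjusted p = 0.0507). UPF3B, of nonsense-mediated decay (−1.12, adjusted p = 0.0361), lost it without ibrutinib library 1, 2 or 3 or idelalisib library 2 or 3 (adjusted p = 0.058 to 0.11) or with no filter (adjusted p = 0.0606). SEPT11 (−0.92, adjusted p = 0.0299) lost it without ibrutinib library 1, 2 or 3 or idelalisib library 1 or 2 (adjusted p = 0.0517 to 0.0791) or with no filter, the 6 libraries alone or the length offset (adjusted p = 0.0506 to 0.0833). ATF5, CCND2, HSP90AA1, PFKFB3 and ZNRF1 also overlap a gene on the other strand, as do, among the genes named earlier, PIK3CD, PIK3CA, MYC, AARS, GARS, FADS2, ACSS2, NPC2, ENO1, NOP14, RPL32, CCND1, JUNB, ETV5, SQSTM1, CYP1B1, TIPARP, BCL2L1, CD44 and MCM7.

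The same contrast was taken in the other lines, which share no library with MEC1. It gave 3282 of 17508 genes in JVM2 (18.7%) and 2815 of 17748 in EHEB (15.9%). Of the genes tested in both, 833 were called in MEC1 and JVM2 (31.4% of the MEC1 and 26.6% of the JVM2 calls), 541 in the same direction and 292 in the opposite one. With EHEB 758 were shared (28.5% and 28.9%), 516 in the same direction and 242 opposite. The difference of the contrast between lines, tested as the interaction, was called at 2411 of 18265 genes against JVM2 (13.2%) and 1825 of 18612 against EHEB (9.81%). Against JVM2 1212 were higher in MEC1 and 1199 lower (825 and 3073 with library size scaling, 1333 and 1536 in the joint fit of 36 libraries), and against EHEB 1143 and 682 (673 and 2342, and 1239 and 1604). Against JVM2 there were 1572 without ibrutinib library 1 and 1590 without idelalisib library 1 of MEC1, and against EHEB 1180 and 1099, 1145 without idelalisib library 3 and 1200 without EHEB ibrutinib library 1. Without ibrutinib library 2 the split was 1181 and 1680 against JVM2 and 973 and 1292 against EHEB.

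Ribosomal protein and cell cycle genes set MEC1 apart most. The idelalisib over ibrutinib difference of ribosomal protein genes was higher in MEC1 than in JVM2 for 62 of 76 members and than in EHEB for 57. Within JVM2 none of these genes was higher with idelalisib and 18 were lower (median −0.21), and within EHEB 1 was higher and 16 lower (median −0.13). Mitotic genes differed at 42 of 45 against JVM2 and 39 against EHEB, while idelalisib gave lower levels for 44 of them in JVM2 (median −1.45) and 43 in EHEB (median −1.37), against 8 in MEC1. DNA replication genes gave 29 of 46 higher and 1 lower in MEC1 against JVM2, and 30 higher against EHEB. MHC class II genes gave 11 of 20 higher against JVM2, and 9 higher and 1 lower against EHEB. Respiratory chain subunits gave 24 of 55 and 26 of 55. Within MEC1 the length offset left 5 respiratory chain subunits higher and 3 lower, and 48 ribosomal protein genes higher and 0 lower. That offset was not applied to the differences between lines.

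Other lists differed in the other direction. NF-kB genes were lower in MEC1 against JVM2 at 9 of 27 members and higher at 1, and against EHEB lower at 6 (12 with library size scaling) and higher at 1. Heat shock genes were lower at 8 of 21 (13 with library size scaling) and higher at 1 against JVM2, where idelalisib gave 7 lower and 3 higher. Against EHEB only 3 were lower (11 with library size scaling) and 1 higher, and within EHEB idelalisib gave 8 lower and 0 higher. CCND2 was lower with idelalisib in all 3 lines, with log2 fold changes of −1.09 in MEC1, −0.64 in JVM2 (adjusted p = 1.99e-06) and −0.70 in EHEB (adjusted p = 8.71e-05). The difference between lines was −0.46 ± 0.145 (SE), adjusted p = 0.0598 against JVM2 and −0.34 ± 0.149 (SE), adjusted p = 0.186 against EHEB. The log2 fold change of UGT2B17 in JVM2 was 0.35 (MEC1 minus JVM2 0.030 ± 0.0965 (SE), adjusted p = 0.921).

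**Figure D2:**
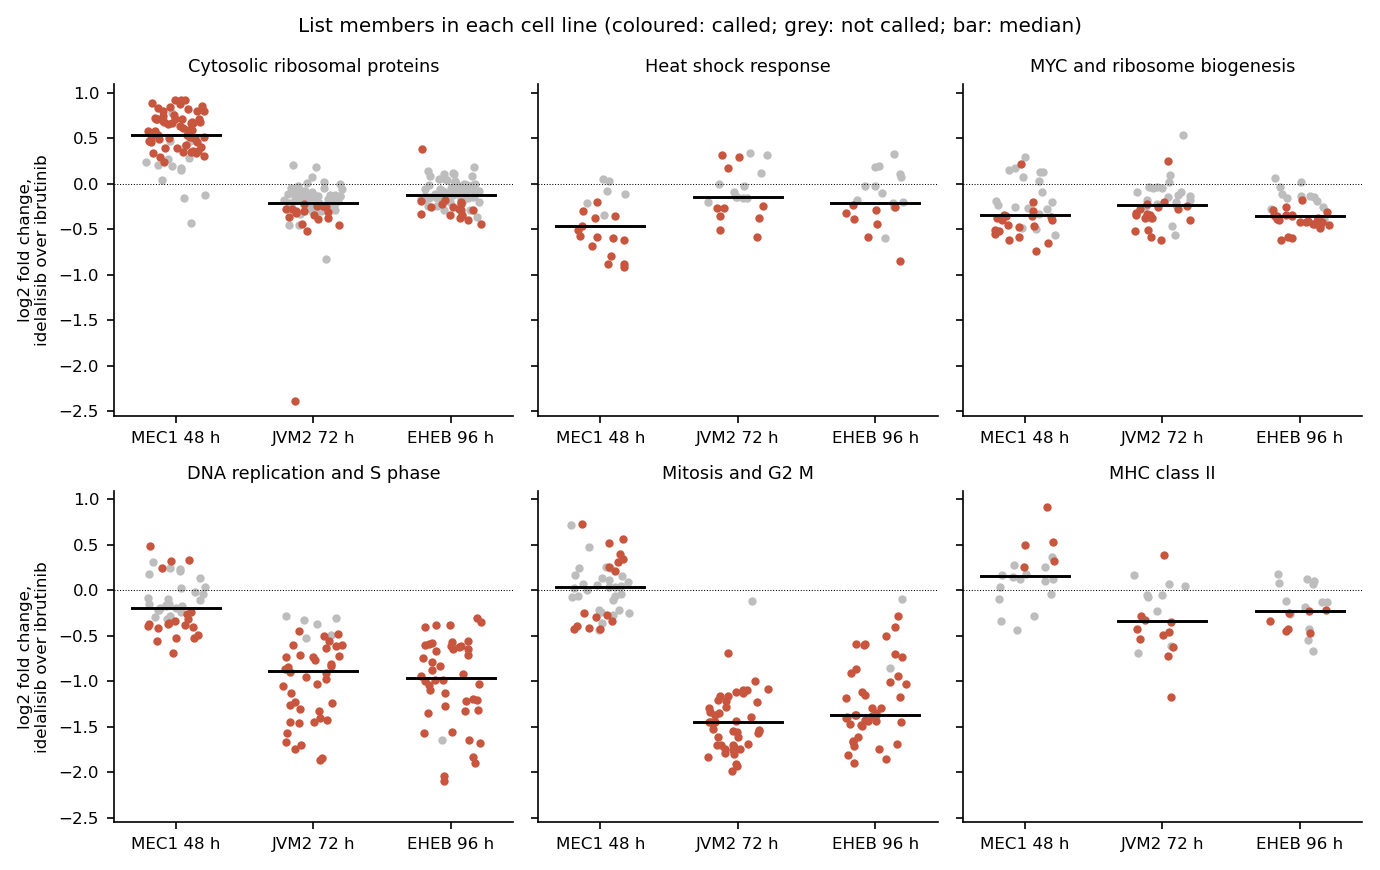
Log2 fold change of idelalisib over ibrutinib for the members of selected gene lists in MEC1 (48 h), JVM2 (72 h) and EHEB (96 h), 1 point per gene (coloured where called, grey where not), with a bar at the median. In MEC1 the ribosomal protein genes lie mostly above 0 and the mitotic genes around 0, whereas in JVM2 and EHEB the mitotic genes lie below 0.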

How the data were processed

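Gene counts of 36 libraries were deposited by the authors as estimated counts, made with Trimmomatic, HISAT2 2.1 and StringTie 1.3.4 on hg38 per the submitters' processing notes, which also name edgeR 3.22.5. The deposited estimated counts were whole numbers and entered the tests without rounding. The sources used here do not give strand, annotation release or how symbols were assigned. Symbols were matched to RefSeq and GENCODE tables (99.61%).

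Libraries were grouped by their titles. All 12 MEC1 libraries were fitted in edgeR 4.0.16 (R 4.3.3) with TMM, filterByExpr (minimum count 10, total 15), and the quasi-likelihood test of idelalisib minus ibrutinib, with Benjamini-Hochberg adjustment over all genes tested and calls at an adjusted p under 0.05. There were 8 residual degrees of freedom. Differences between lines were tested as the interaction over the 12 kinase inhibitor libraries of a pair of lines. A blank symbol (0.0027% to 0.0045% of counts) was left out. The libraries of the comparison held 37846913 to 49169738 counts; replicate pairs differed beyond sampling noise (chi-square per degree of freedom 27.3 to 47.6), so no library was a copy. The script was tested on simulated data. The estimated counts are not independent molecules, and short transcripts, pseudogene copies and overlapping genes may share reads.

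Members and gene lists were chosen with earlier results of these data known. A total of 31 lists were written by hand from general knowledge. Named genes were the 15 largest rises and 15 largest falls among called, non-overlapping genes averaging a log2 CPM of 1 or more, up to 4 called members per list on the same floor by size of fold change, and BTK, TEC, PIK3CD, PIK3CA, PIK3CB, PIK3R1, MYC, FOXO1, UGT2B17 and UGT2B15; genes named otherwise are said to be, and some genes are not reported here. Lists are described by counts and medians, with no set test. Motifs were searched in RefSeq promoters (250 bases before to 50 after the start), on both strands. The pyrimidine run of the ribosomal protein genes was instead sought on the coding strand only, at the annotated start.

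Alternatives were limma-voom (limma 3.58.1), DESeq2 1.42.0, scaling by library size, RLE and upper quartile, no filter, a stricter filter (mean CPM of 5), the 6 libraries alone, a joint fit of 36 libraries and each library left out. Division of counts by 8/3, at whose multiples low counts pile up, and an offset for transcript length were chosen after seeing the data.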

Additional observations from a re-analysis of the deposited data

Results flagged for a closer look

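Among the genes whose difference between lines was looked at, 9 had an idelalisib over ibrutinib fold change in MEC1 that differed from that of another line by the interaction test of edgeR, 3 libraries a group. Those looked at were the 5 largest rises and 5 largest falls of this contrast in MEC1, with BTK, PIK3CD and UGT2B17. The rises and falls were picked by MEC1 values that also enter the interaction. Over all genes the difference was called at 13.2% against JVM2 and 9.81% against EHEB. MEC1 was exposed for 48 h but JVM2 for 72 h and EHEB for 96 h, so line and time cannot be told apart.

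Against JVM2, ZNF546 differed by 3.79 ± 0.59 (SE; adjusted p = 0.00225), from 2.09 in MEC1 and −1.71 in JVM2, so that this zinc finger gene was higher with idelalisib in one line and lower in the other. CNOT8 differed by 1.93 ± 0.467 (SE; adjusted p = 0.0215), from 1.47 in MEC1 and −0.47 in JVM2. DUSP22 differed by −2.20 ± 0.445 (SE; adjusted p = 0.00879), from −1.96 in MEC1 and 0.23 in JVM2, where idelalisib and ibrutinib were not called different. ATF5 differed by −1.42 ± 0.42 (SE; adjusted p = 0.0484), from −1.28 in MEC1 and 0.13 in JVM2, and ZNRF1 differed by −0.96 ± 0.224 (SE; adjusted p = 0.0179), from −1.01 in MEC1 and −0.067 in JVM2. The differences of ZNF546, DUSP22 and ZNRF1 held whichever library was left out, that of CNOT8 was lost without JVM2 idelalisib library 3 or idelalisib library 1 (adjusted p = 0.0555 to 0.0575), and that of ATF5 without JVM2 ibrutinib library 1, 2 or 3 or JVM2 idelalisib library 1 or 2 or ibrutinib library 1 or 3 or idelalisib library 1 or 3 (adjusted p = 0.0805 to 0.113).

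Against EHEB, CNOT8 differed by 1.44 ± 0.337 (SE; adjusted p = 0.0223), from 1.47 in MEC1 and 0.079 in EHEB. C19orf38 differed by 1.31 ± 0.238 (SE; adjusted p = 0.00653), from 1.33 in MEC1 and 0.064 in EHEB. IRAK4 differed by 1.24 ± 0.169 (SE; adjusted p = 0.00131), from 1.32 in MEC1 and 0.12 in EHEB. ZNRF1 differed by −1.02 ± 0.274 (SE; adjusted p = 0.0401), from −1.01 in MEC1 and 0.041 in EHEB. PIK3CD differed by −0.64 ± 0.154 (SE; adjusted p = 0.0248), from −0.27 in MEC1 and 0.42 in EHEB, the gene of the kinase that idelalisib inhibits being higher with idelalisib in EHEB (adjusted p = 0.000971). UGT2B17 differed by 0.48 ± 0.117 (SE; adjusted p = 0.0256), from 0.40 in MEC1 and −0.039 in EHEB, a difference lost with library size scaling (0.27, adjusted p = 0.133). C19orf38 was lost in the joint fit of 36 libraries (adjusted p = 0.402). With single libraries left out, CNOT8 was lost without EHEB idelalisib library 3 or ibrutinib library 1 or 3 or idelalisib library 1 (adjusted p = 0.052 to 0.0607), ZNRF1 without EHEB ibrutinib library 1, 2 or 3 or EHEB idelalisib library 2 or 3 or ibrutinib library 1 or 2 or idelalisib library 1, 2 or 3 (adjusted p = 0.0507 to 0.093), PIK3CD without EHEB ibrutinib library 1 or 2 or EHEB idelalisib library 2 or 3 or ibrutinib library 1 or 3 or idelalisib library 1 or 3 (adjusted p = 0.0507 to 0.0684) and UGT2B17 without EHEB ibrutinib library 1 or ibrutinib library 1 or 2 or idelalisib library 1 or 3 (adjusted p = 0.0567 to 0.0879).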

How the results depend on the processing

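The count of calls (2694) was 4345 with library size scaling (493 higher, 3852 lower) and 1504 in the 6 libraries alone (792 and 712), and 1376 to 2885 with a library left out. The share of calls that were higher was 39.1%, against 11.3% with library size scaling, 51.1% with upper quartile scaling, 49.9% with no filter (947 and 950) and 52.7% in the 6 libraries alone. The count of genes with a 2-fold difference (95) was 36 with the stricter filter, 58 in the 6 libraries alone, 155 in the joint fit and 58 to 164 with a library left out. The MEC1 against JVM2 difference (2411 genes) gave 3898 with library size scaling and 1572 to 2861 with a library left out, and the MEC1 against EHEB difference (1825) gave 3015, 2843 in the joint fit and 1099 to 2265. Fewer genes enter the stricter filter and fewer libraries the 6-library fit; otherwise the cause was not tested. Direction was compared for the named genes only, and none that was called changed direction. The balance of higher and lower calls did: from 1053 and 1641 to 1319 and 1260 with upper quartile scaling, from 1143 and 682 to 673 and 2342 (MEC1 against EHEB) and from 1212 and 1199 to 825 and 3073 (JVM2) with library size scaling, and from 12 and 3 to 5 and 10 in respiratory chain subunits. The medians of the FOXO target, sterol efflux, mitotic, cyclin, ERK feedback, MHC class II, endoplasmic reticulum, lysosome and chemokine lists went from above to below 0 with library size scaling, and that of the BCL2 family from below to 0 with upper quartile scaling. Of the values for single genes under alternatives, 2266 kept their side of the threshold, 251 lost a call and 9 gained one. The gains fell among the named genes not called, namely BTK, TEC, PIK3CD, PIK3CA, PIK3R1, MYC, RPS26 and UGT2B15. They are not listed by gene. Of list medians, 484 moved by less than the replicate spread and 43 by more. No paired analysis was possible because the groups share no replicate numbers. With 3 libraries a group and one line, small differences at low counts were not detectable, and dose, drug and library number run together.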

Other observations

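RBM14, an RNA-binding protein gene, and the read-through entry RBM14-RBM4, which shares its sequence, moved in opposite directions. RBM14 was at 87.8, 53.3 and 75.2 CPM with ibrutinib and 35.0, 48.4 and 36.4 CPM with idelalisib (log2 fold change −0.85, adjusted p = 0.00692). RBM14-RBM4 was at 16.1, 14.4 and 11.1 CPM with ibrutinib and 32.3, 25.6 and 23.4 CPM with idelalisib (log2 fold change 0.96, adjusted p = 0.0213). Neither set of values overlapped between the drugs, while RBM4 itself was at 82.8, 93.5 and 88.0 CPM with ibrutinib and 88.2, 91.6 and 92.1 CPM with idelalisib (adjusted p = 0.798).

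In a few genes the value of 1 library fell to under a 6th of the middle value of its group where that value exceeded 50 CPM, a criterion set after the data were seen. MYC was at 156, 162 and 9.36 CPM in the idelalisib libraries. Idelalisib library 2 was low for FAM174B (95.8, 9.34 and 95.1 CPM), HCP5 (209, 15 and 214 CPM) and the histone gene HIST2H4A (385, 33.9 and 402 CPM). Ibrutinib library 1 was low for FAM174B (1.56, 103 and 116 CPM with ibrutinib) and HCP5 (12.8, 171 and 173 CPM). SCARNA12, TXNDC5, CIPC and RPL17-C18orf32 met the same criterion. None of the genes given here was called by edgeR's quasi-likelihood test.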
